A study of Mus musculus with 60 samples.

Results

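Zic1, Zic2 and Zic5 are 3 of the 55487 genes in the deposited count tables. They were followed by symbol and Ensembl identifier (ENSMUSG00000032368, ENSMUSG00000061524 and ENSMUSG00000041703) through all 20 groups of the series. The genes were chosen with measured values in view. Zic2 and Zic5 were selected on the RNA levels of the T0 contrast of dPOLE4 MCM2-2A against Ctrl MCM2-2A, which is therefore given as a description and carries no test.

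Zic genes encode transcription factors whose zinc fingers resemble those of the GLI proteins, the nuclear effectors of hedgehog signalling. In mouse embryonic stem cells (mESCs), ZIC proteins bind enhancers as cells move from the naive towards the formative state, the step that prepares them for lineage commitment. Later in development Zic1, Zic2 and Zic5 mark the dorsal neural tube and the neural crest.

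RNA was measured in 60 libraries, 3 for each group. All cells were E14JU mESCs that carried POLE4-dTAG, a degron on the POLE4 subunit of DNA polymerase epsilon, and 1 clone was used without and 1 clone with MCM2-2A, a mutation that disables histone binding by the helicase subunit MCM2. Cells given DMSO are called Ctrl and Ctrl MCM2-2A, and cells given 1 µM dTAG, which removes POLE4, are called dPOLE4 and dPOLE4 MCM2-2A. Ctrl and dPOLE4 make up the WT background. Cells in serum and LIF were collected after 24 h of treatment (T0), or were moved after those 24 h to retinoic acid (RA) without LIF and collected 12 h (T12), 24 h (T24) or 60 h (T60) later. Separate cultures without RA were collected after 96 h of treatment. With 1 clone per background, the mutation and the clone cannot be told apart.

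On mm10, Zic2 spans chr14:122475435-122479852 on the plus strand and Zic5 chr14:122456795-122465677 on the minus strand, head to head with 9757 bases between them. Zic1 spans chr9:91358058-91365810 on the minus strand and overlaps Zic4, on the plus strand, over 3398 bases, although the exons of Zic1 share only 60 of their 5693 bases with another gene. The libraries were strand-specific, but the strand setting of the counting is not given in the sources used here, so reads from those shared exon bases may have been assigned to either gene. The exons of Zic2 (2880 bases) and Zic5 (4889 bases) overlap no other annotated gene.

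RefSeq promoter sequences (GRCm38.p6) were matched for 2 of the 3 genes, Zic1 and Zic5. They are shown because CpG-rich promoters of developmental genes are common targets of Polycomb, a histone-based form of silencing. Each line gives 200 bases upstream of the start on the gene's own strand, with every CpG in capitals. The windows end short of the RefSeq start, so the bases next to it are not covered.
Zic1, chr9:91365819-91366018, minus strand: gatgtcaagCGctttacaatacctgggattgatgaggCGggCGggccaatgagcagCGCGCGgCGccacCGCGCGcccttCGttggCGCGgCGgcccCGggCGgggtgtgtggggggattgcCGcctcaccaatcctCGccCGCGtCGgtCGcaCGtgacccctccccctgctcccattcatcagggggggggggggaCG
Zic5, chr14:122465709-122465908, minus strand: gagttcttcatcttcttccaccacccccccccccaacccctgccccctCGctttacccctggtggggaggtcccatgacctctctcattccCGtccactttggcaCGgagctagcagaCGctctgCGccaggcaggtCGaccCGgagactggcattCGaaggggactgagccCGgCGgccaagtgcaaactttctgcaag
The Zic1 window held 24 CpG at 71.5% GC, a CpG count reached by 5.27% of 27025 promoter windows of the same length. The Zic5 window held 10 CpG at 63.0% GC, reached by 29.31%, and the median window held 4. Of 5 motifs searched on both strands, none of which contains another, the Zic1 window had 2 matches to the GC box GGGCGG (present in 24.5% of windows), 1 to the E-box CACGTG (4.4%) and 2 to CCAAT (28.9%). The Zic5 window had 1 match to AGGTCA, the half-site of nuclear receptors (11.2% of windows). Neither window held the TCF/LEF core CTTTGA (12% of windows). These are matches of letters and not binding sites.

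Sequencing depth, as total counts, ranged from 10461077 to 46609151 over the 48 RA-course libraries (T0 to T60) and from 7126100 to 23598266 over the 12 libraries of the 96 h cultures. Levels are given as CPM, that is counts scaled to library size, after TMM scaling, with the SD over 3 libraries where an error is shown. All 8 mESC markers looked up were above 1 CPM in every group, and their summed CPM in Ctrl was 2909 to 3013 at T0 and 205 to 243 at T60. In bulk RNA, fewer cells of a type and less RNA per cell cannot be told apart. The comparisons share libraries with one another, since each control group serves several of them. Where groups are said not to overlap, the share of all features without overlap was not counted, and this is a description. A gene was called changed when its adjusted p (edgeR quasi-likelihood test, Benjamini-Hochberg over all features tested) was under 0.01 and its log2 fold change exceeded 0.58 in size. Percentages of features called are the share of all tested genes and repeat subfamilies that met both criteria in the same comparison, and log2 fold changes are given ± their standard error.

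Zic2 and Zic5 were well expressed in undifferentiated cells, and Zic1 was barely detected. In Ctrl at T0, Zic2 stood at 52.8, 62.8 and 58.6 CPM in the 3 libraries. Zic5 stood at 49.9, 61.4 and 55.5 CPM, in the same range. Zic1 had 0, 2 and 4 counts, and the count of 0 allows up to 3 counts, or 0.170 CPM, in counting error alone. Per kilobase of exon, the level of Zic2 was 20.2 ± 1.74 CPM per kb and that of Zic5 11.4 ± 1.18. Zic4, the neighbour of Zic1, had no count in 24 of the 60 libraries and at most 25 counts in any.

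Under RA, both genes first rose and then fell in Ctrl cells. Zic2 stood at 70.4, 85.4 and 76.2 CPM at T12, then at 50.9, 59.2 and 56.8 at T24 and at 17.1, 10.8 and 11.03 at T60. Zic5 stood at 66.7, 80.7 and 79.0 CPM at T12, then at 37.4, 42.2 and 39.9 at T24 and at 5.17, 5.66 and 5.56 at T60. For both genes every T12 library lay above every T0 library, and every T60 library below every T24 library. The 12 h step was 0.41 ± 0.0812 for Zic2 (adjusted p = 0.00213) and 0.44 ± 0.0874 for Zic5 (adjusted p = 0.00229), so that both met the criterion on p but not that on size, in a step with 11.3% of features called. From T12 to T24, where 6.97% were called, Zic5 was called at -0.92 ± 0.0802 (adjusted p = 1.89e-05), while Zic2, at -0.47 ± 0.0797 (adjusted p = 0.00153), was short of the size required. From T24 to T60, where 35.7% were called, both were called, Zic2 at -2.05 ± 0.127 and Zic5 at -2.86 ± 0.1.

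**Figure D1:**
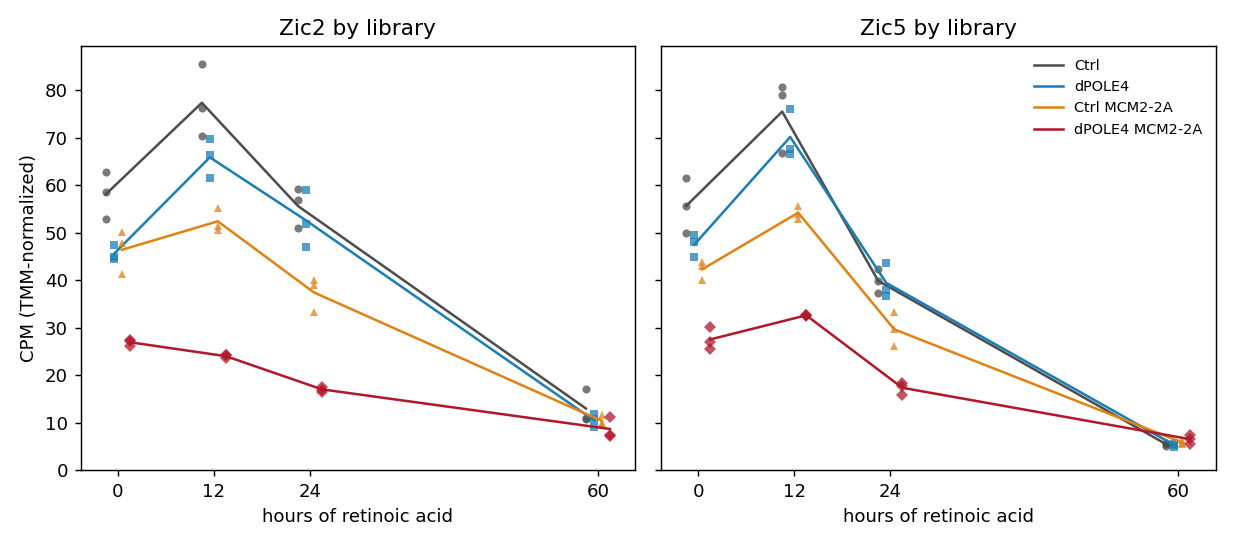
CPM of Zic2 (left) and Zic5 (right) in each of the 48 RA-course libraries against hours of retinoic acid; each point is 1 library and lines join the group means. At T0, T12 and T24 the dPOLE4 MCM2-2A libraries lie below those of the other lines at the same time (Zic2 at 16.6 to 27.3 CPM), and at T60 the lines overlap.

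The same course was seen after POLE4 depletion in the WT background. In dPOLE4, the steps of Zic2 were 0.53 ± 0.0634 to T12 (11.7% of features called), -0.32 ± 0.0835 to T24 (6.3%) and -2.32 ± 0.108 to T60 (32%), of which the last was called. Those of Zic5 were 0.56 ± 0.0676, -0.83 ± 0.08 and -2.89 ± 0.102, of which the later pair were called. The T12 steps had adjusted p of 2.69e-05 and 2.89e-05 and missed the size criterion alone. Tested directly, the steps of dPOLE4 minus those of Ctrl were 0.13 ± 0.11 (Zic2) and 0.14 ± 0.12 (Zic5) from T0 to T12, and -0.26 ± 0.195 and -0.02 ± 0.151 from T24 to T60. None was called. In both of these tests edgeR called 0% of features, with 1811 and 1303 at an unadjusted p under 0.05, and DESeq2 called 0 and 1.

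In Ctrl MCM2-2A both genes stood higher at T12 than at T0. Zic2 stood at 50.1, 47.8 and 41.2 CPM at T0 and at 51.5, 55.2 and 50.5 at T12, a step of 0.22 ± 0.081 (8.65% of features called). Zic5 stood at 43.8, 43.0 and 40.1 CPM and then at 54.0, 55.7 and 52.9 (0.40 ± 0.0666). These steps start from T0 libraries on which the genes were selected, as do those of dPOLE4 MCM2-2A, so they are given as a description with no test. From T12 to T24 (8.83% called) the steps were -0.49 ± 0.0785 for Zic2, not called on size, and -0.86 ± 0.0837 for Zic5, called. From T24 to T60 (31.6% called) both were called, at -1.84 ± 0.093 and -2.34 ± 0.107. The differences from the steps of Ctrl were -0.19 ± 0.123 and -0.04 ± 0.116 from T0 to T12 (0.303% of features called). From T24 to T60 (8.02%) they were 0.19 ± 0.178 and 0.50 ± 0.161, neither called, and Zic5 had an adjusted p of 0.0288.

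With POLE4 depletion and MCM2-2A combined, Zic2 stood lower at each later time on RA. In dPOLE4 MCM2-2A it stood at 27.3, 27.3 and 26.2 CPM at T0, at 24.1, 23.6 and 24.2 at T12, at 16.9, 16.6 and 17.6 at T24 and at 11.3, 7.28 and 7.47 at T60. Every T12 library lay below every T0 library, the reverse of the order in the other 3 lines, with a step of -0.15 ± 0.0746 (7.79% of features called). Zic5 stood at 30.1, 25.5 and 26.9 CPM at T0, at 32.7, 32.6 and 32.6 at T12, at 18.4, 15.8 and 17.8 at T24 and at 7.34, 6.64 and 5.59 at T60. Its T12 step was 0.26 ± 0.0795. From T12 to T24 (7.75% called) Zic2 had -0.49 ± 0.0802, not called on size, and Zic5 was called at -0.90 ± 0.083. From T24 to T60 (25.3% called) both were called, at -0.97 ± 0.157 and -1.42 ± 0.131.

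Against the Ctrl steps, the T0 to T12 step of dPOLE4 MCM2-2A stood at -0.55 ± 0.11 for Zic2 (0.497% of features called) and at -0.17 ± 0.123 for Zic5, also as a description. The fall from T24 to T60 was less steep than in Ctrl for both genes. Its difference was 1.07 ± 0.228 for Zic2 (adjusted p = 0.00352) and 1.43 ± 0.167 for Zic5 (adjusted p = 1.86e-05), both called among 7.62% of features. The lower T24 level of dPOLE4 MCM2-2A enters this difference. Mean Zic5 was 17.4 CPM against 39.8 in Ctrl at T24, and 6.52 against 5.46 at T60. Mean Zic2 was 17.0 CPM against 55.6 at T24, and 8.68 against 13.0 at T60. Zic5 was called in all 12 fits that left out 1 library, and Zic2 in 8 of 12. The Zic2 call was lost without Ctrl T60 replicate 2 (0.96, adjusted p = 0.0108) or 3 (0.96, adjusted p = 0.0142), without dPOLE4 MCM2-2A T24 replicate 1 (1.07, adjusted p = 0.0103) and without dPOLE4 MCM2-2A T60 replicate 1 (0.84, adjusted p = 0.0106). The mESC marker sum at T60 was also higher in that line, at 568 to 739 CPM, and at 440 to 556 in Ctrl MCM2-2A, against 205 to 243 in Ctrl, and its part in these differences was not tested.

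The effect of POLE4 depletion was compared between the backgrounds at each time. In the WT background none of the 11 values that could be fitted for the 3 genes was called by edgeR or DESeq2, and 5 had an unadjusted p under 0.05 in edgeR. Zic2 in dPOLE4 stood at 44.8, 47.3 and 44.4 CPM at T0, below every Ctrl library, at -0.36 ± 0.0699 (adjusted p = 0.329). Its later values were -0.22 ± 0.0747 at T12, -0.08 ± 0.0862 at T24, -0.33 ± 0.159 at T60 and -0.33 ± 0.119 at 96 h. Zic5 stood at 48.0, 49.5 and 44.8 CPM at T0, also below every Ctrl library, at -0.24 ± 0.0772, and then had -0.10 ± 0.0789 at T12, -0.01 ± 0.0778 at T24, -0.02 ± 0.151 at T60 and -0.26 ± 0.1 at 96 h. The adjusted p of these values lay between 0.281 and 0.987. Few features were called in this background at all, 0% at T0, T12, T24 and 96 h and 0.193% at T60. At the 4 times without calls, 2069, 1150, 1451 and 2164 features had an unadjusted p under 0.05, and DESeq2 called 0, 2, 15 and 25. At 96 h, where the replicate numbers pair the samples, the fit with the replicate block called 142 features, with Zic2 at -0.34 (adjusted p = 0.000518) and Zic5 at -0.26 (adjusted p = 0.012), neither of them called, and Zic1 not fitted.

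In the MCM2-2A background POLE4 depletion lowered both genes through the first day of RA. At T0, where Zic2 and Zic5 had been singled out, the log2 fold changes were -0.77 ± 0.0853 and -0.61 ± 0.0827 without overlap between the groups (0.0715% of features called, from which nothing is read here). At T12, where 0.404% of features were called, Zic2 had -1.13 ± 0.069 (adjusted p = 3.57e-05) and Zic5 -0.73 ± 0.0625 (adjusted p = 0.000196), which left 0.458 and 0.601 of the control level. At T24, where 1.02% were called, Zic2 went from 33.4, 38.9 and 39.9 CPM to 16.9, 16.6 and 17.6 (-1.13 ± 0.09, adjusted p = 1.55e-05). Zic5 went from 26.1, 33.3 and 29.6 CPM to 18.4, 15.8 and 17.8 (-0.77 ± 0.102, adjusted p = 0.000599). The groups did not overlap in these 4 comparisons, but the share of all features without overlap was not counted. Each call was kept in all 6 fits that left out 1 library. The study had looked at formative genes at these times too, so the direction is not independent evidence.

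**Figure D2:**
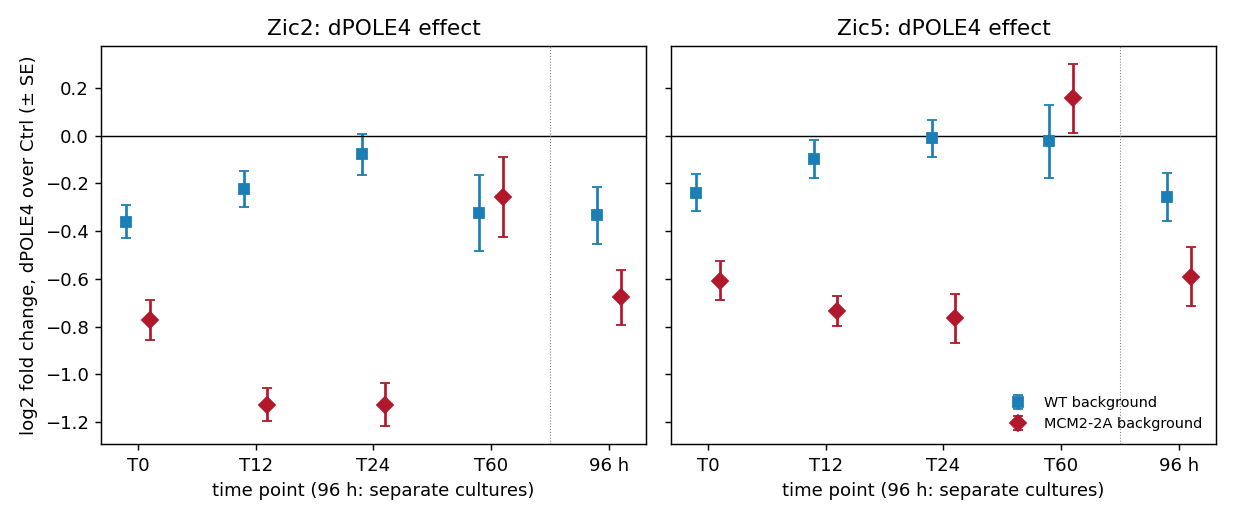
Log2 fold change of Zic2 (left) and Zic5 (right) on POLE4 depletion at each time point with and without MCM2-2A; bars are standard errors of the edgeR fit with 3 libraries per group. In MCM2-2A both genes have their lowest values at T12 and T24 (Zic2 at -1.13 and -1.13) and lie near 0 at T60.

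At T60 neither gene was called in MCM2-2A. Zic2 had -0.26 ± 0.167 (adjusted p = 0.406) and Zic5 0.16 ± 0.143 (adjusted p = 0.58), with overlapping groups, in a comparison in which 2.25% of features were called. In the 96 h cultures, Zic2 stood at 35.6, 41.0 and 31.6 CPM without and at 21.3, 24.1 and 22.1 with dTAG. Zic5 stood at 26.5, 28.6 and 23.5 CPM without and at 14.9, 18.7 and 18.4 with dTAG. Neither pair of groups overlapped, but the log2 fold changes, -0.68 ± 0.115 (adjusted p = 0.0244) and -0.59 ± 0.124 (adjusted p = 0.0593), were not called (0.304% of features, or 53, were). Same-numbered 96 h libraries deviated together, and with the replicate number as a block, which called 307 features, both genes were called, Zic2 at -0.68 (adjusted p = 6.11e-07) and Zic5 at -0.58 (adjusted p = 6.98e-05). DESeq2 called both (adjusted p = 0.00026 and 0.00988), as did edgeR without the filter on low counts (adjusted p = 1.83e-05 and 0.00196). The other alternatives listed below, and all 6 edgeR fits with 1 library left out, called neither.

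The difference of the POLE4 effect between the backgrounds was tested in 1 fit of 12 libraries per time. At T12 the effect on Zic2 differed by -0.90 ± 0.104 (adjusted p = 0.00222), and Zic2 was 1 of 3 features called (0.0159%). At T24 it differed by -1.06 ± 0.133 (adjusted p = 0.00724), and Zic2 was 1 of 7 (0.0351%). The study had looked at formative genes in these libraries too, so the place of Zic2 among so few features is not independent evidence. Zic5 had -0.63 ± 0.103 (adjusted p = 0.0265) and -0.77 ± 0.136 (adjusted p = 0.0411) at these times and was not called, whereas DESeq2 called it at both (adjusted p = 0.000116 and 0.000508). At T60 the differences were 0.07 ± 0.257 and 0.19 ± 0.197, not called (0.1% of features were). At 96 h they were -0.34 ± 0.181 and -0.33 ± 0.163, with 0% of features called by edgeR, 686 at an unadjusted p under 0.05 and 1 called by DESeq2. The T0 values, a description, were -0.41 ± 0.113 and -0.36 ± 0.117 (0.00526% called).

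The Zic2 calls between the backgrounds lay close to the threshold on adjusted p. At T12 the call was kept in 10 of 12 fits with 1 library left out, and lost without Ctrl T12 replicate 1 (-0.83, adjusted p = 0.0117) or dPOLE4 MCM2-2A T12 replicate 2 (-0.89, adjusted p = 0.0164). At T24 it was kept in 5 of 12. It was lost without Ctrl T24 replicate 1 or 3 (adjusted p = 0.0256 and 0.0126), without Ctrl MCM2-2A T24 replicate 2 or 3 (adjusted p = 0.0257 and 0.025), and without replicate 1, 2 or 3 of dPOLE4 MCM2-2A T24 (adjusted p = 0.0127, 0.0124 and 0.0113), with log2 differences of -1.084 to -0.9975 in these 7 fits.

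Zic2 and Zic5 did not keep a fixed ratio. Within a library, where depth and scaling cancel, the count of Zic5 over that of Zic2 in Ctrl was 0.957 ± 0.0187 at T0, 0.976 ± 0.0521 at T12, 0.717 ± 0.0161 at T24 and 0.444 ± 0.124 at T60. In dPOLE4 MCM2-2A it was 1.02 ± 0.0844 at T0, 1.36 ± 0.0197 at T12, 1.02 ± 0.0663 at T24 and 0.770 ± 0.133 at T60. The 3 libraries of dPOLE4 MCM2-2A at T12, at 1.34 to 1.38, lay above the highest of the other 57 libraries (1.10). The ratio was looked at after the values had been seen and was given no test.

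**Figure D3:**
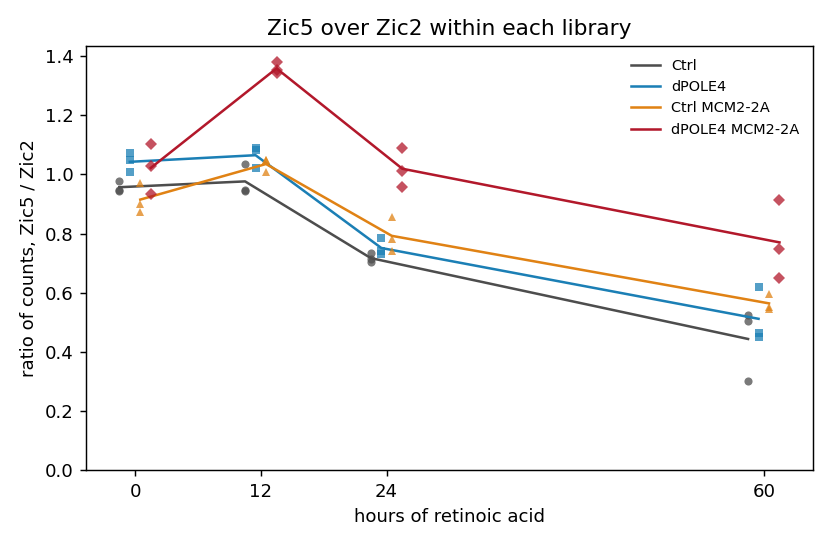
Ratio of Zic5 to Zic2 counts in each of the 48 RA-course libraries against hours of retinoic acid, with points for libraries and lines through group means. Each line of cells declines after T12, and the dPOLE4 MCM2-2A libraries stand apart at T12 (1.34 to 1.38).

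Neighbouring genes were examined because Zic2 and Zic5 share a locus. Within 5 Mb of the pair, 26, 26 and 27 other features could be tested for POLE4 depletion in MCM2-2A at T0, T12 and T24. None was called by edgeR or DESeq2 (3, 7 and 9 had an unadjusted p under 0.05 in edgeR), and their median log2 fold changes were 0.03, -0.01 and 0.01. With 0.0715%, 0.404% and 1.02% of all features called at these times, no calls among so few features is near the background and says nothing particular to the locus. The non-coding gene 2610035F20Rik, between Zic5 and Zic2 (chr14:122470284-122475199, minus strand), had at most 25 counts in any library. At T0 it stood at 0.737, 0.627 and 0.607 CPM in Ctrl and at 0.358, 0.376 and 0.334 CPM in dPOLE4. It stood at 0.279, 0.459 and 0.390 CPM in Ctrl MCM2-2A and at 0.234, 0.215 and 0.0870 CPM in dPOLE4 MCM2-2A, from 3 to 16 counts a library over the 4 groups. In the WT background the order was reversed later. Means at T12, T24 and T60 were 0.541, 0.677 and 0.123 CPM in Ctrl and 0.664, 0.758 and 0.307 in dPOLE4. They were 0.320, 0.312 and 0.0987 CPM in Ctrl MCM2-2A and 0.148, 0.156 and 0.120 in dPOLE4 MCM2-2A.

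The MCM2-2A line differed from the line without the mutation in cells given DMSO and no dTAG. Zic2 had -0.35 ± 0.0792 at T0, -0.55 ± 0.0804 at T12 and -0.55 ± 0.0744 at T24, and Zic5 had -0.42 ± 0.0742, -0.46 ± 0.0793 and -0.39 ± 0.0805. The T0 values use libraries on which the genes were selected and carry no test. At T12 and T24 the groups did not overlap and the adjusted p were at most 0.00112, but none reached the size criterion. Large shares of all features were called there, 18.9% at T0, 14.5% at T12 and 17.3% at T24. An unadjusted p under 0.05 was reached by 8079 of 17799 features at T12 and by 9921 of 18708 at T24. The lack of overlap is therefore a description. At T60, where 16.9% were called, the groups overlapped (Zic2 -0.35 ± 0.158, adjusted p = 0.0909; Zic5 0.11 ± 0.149, adjusted p = 0.569).

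At 96 h both genes were called lower in Ctrl MCM2-2A, in a comparison with 15.7% of features called. Ctrl libraries stood at 54.7, 64.7 and 49.5 CPM for Zic2 and at 42.8, 50.3 and 40.1 CPM for Zic5, above every Ctrl MCM2-2A library. The log2 fold change was -0.62 ± 0.122 for Zic2 (adjusted p = 0.00146) and -0.75 ± 0.116 for Zic5 (adjusted p = 0.000273). The Zic5 call was kept in all 6 fits with 1 library left out. That of Zic2 was lost without Ctrl 96h replicate 2 (-0.52, adjusted p = 0.0096) or Ctrl MCM2-2A 96h replicate 3 (-0.54, adjusted p = 0.0131). The 26 tested features within 5 Mb had a median of -0.30 in this comparison, against -0.01 over all features, with 20 of 26 below 0, 2 called lower and 3 called higher. In the same contrast the median was -0.11 at T0, -0.08 at T12, -0.05 at T24 and -0.11 at T60. There 19 of 28, 17 of 29, 15 of 28 and 18 of 28 lay below 0. Whether these values bear on the pair was not tested. Zic1 was below the filter on low counts at 96 h, at 0.416, 0.559 and 0.575 CPM in Ctrl MCM2-2A and at 0.1001, 0.167 and 0.0431 CPM in Ctrl.

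**Figure D4:**
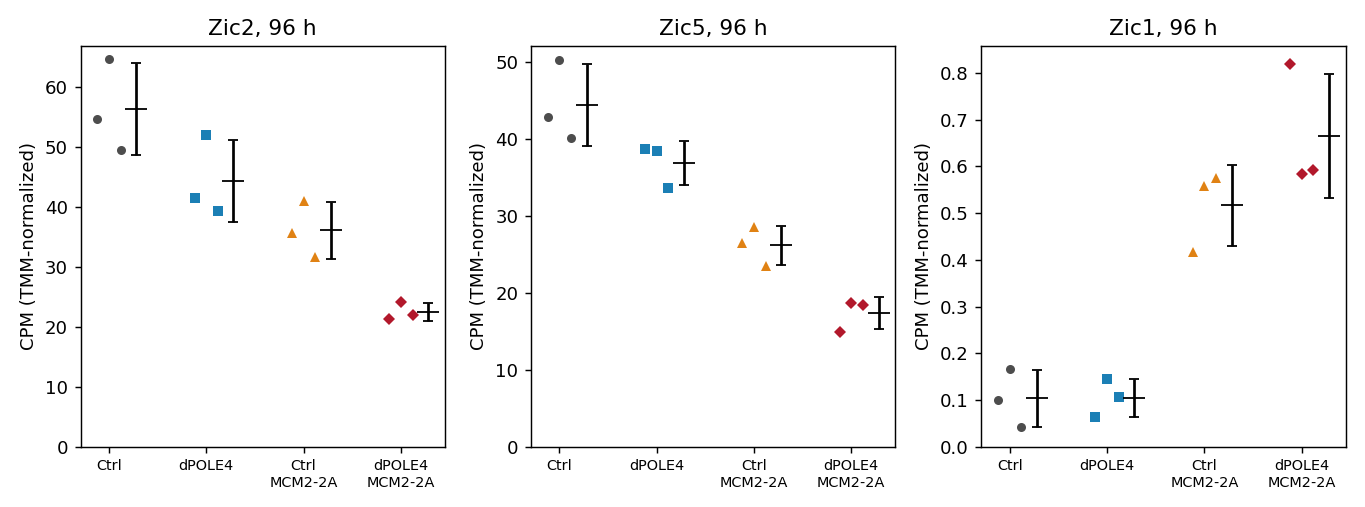
CPM of the 3 genes in the 12 libraries of 96 h, with the mean and SD of each group beside its 3 points and a separate scale from 0 in each panel. The dPOLE4 MCM2-2A libraries are the lowest for Zic2 and Zic5, and the libraries of both MCM2-2A groups the highest for Zic1 (0.416 to 0.819 CPM).

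Zic1 followed another course: it stayed low until T24 and came up at T60, where its levels were higher in the MCM2-2A lines. In Ctrl it had 10, 2 and 7 counts at T24 and 28, 20 and 9 at T60 (1.70, 1.83 and 0.863 CPM). In Ctrl MCM2-2A it had 9, 23 and 9 counts at T24 and 114, 283 and 156 at T60 (5.40, 9.15 and 7.97 CPM). At T60 dPOLE4 MCM2-2A stood at 4.74, 5.21 and 6.46 CPM and dPOLE4 at 0.457, 1.15 and 1.35 CPM, so that both MCM2-2A groups lay above both groups of the WT background. The log2 fold change of Ctrl MCM2-2A over Ctrl at T60 was 2.34 ± 0.264 (adjusted p = 5.05e-06), called in all 6 fits with 1 library left out. At T24 it was 1.59 ± 0.467 (adjusted p = 0.0101, not called), in a comparison that Zic1 entered only through the MCM2-2A libraries.

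The rise of Zic1 from T24 to T60 was called in 3 lines, at 2.58 ± 0.46 in Ctrl, 3.35 ± 0.257 in Ctrl MCM2-2A and 2.84 ± 0.3 in dPOLE4 MCM2-2A. In dPOLE4 the gene was below the filter on low counts, and DESeq2, which uses another filter, called it there (2.40 ± 0.692, adjusted p = 0.00161). In Ctrl and in dPOLE4 MCM2-2A it passed the filter on low counts only through T60, where it is high, so the number of lines is not taken as support. The step was not shown to differ between the control lines, with 0.74 ± 0.625 for Ctrl MCM2-2A minus Ctrl (adjusted p = 0.429), nor between dPOLE4 MCM2-2A and Ctrl (0.25 ± 0.694, adjusted p = 0.847). POLE4 depletion at T60 gave -0.52 ± 0.367 in the WT background (adjusted p = 0.576) and -0.46 ± 0.195 in MCM2-2A (adjusted p = 0.173), neither called. Per kilobase of exon, the level of Zic1 in Ctrl MCM2-2A at T60 was 1.32 ± 0.336 CPM per kb, that of Zic5 1.19 ± 0.101 and that of Zic2 3.60 ± 0.382. Zic4, whose exons share bases with those of Zic1, had 40 counts over the 3 libraries of Ctrl MCM2-2A at T60 and 2 over those of Ctrl.

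**Figure D5:**
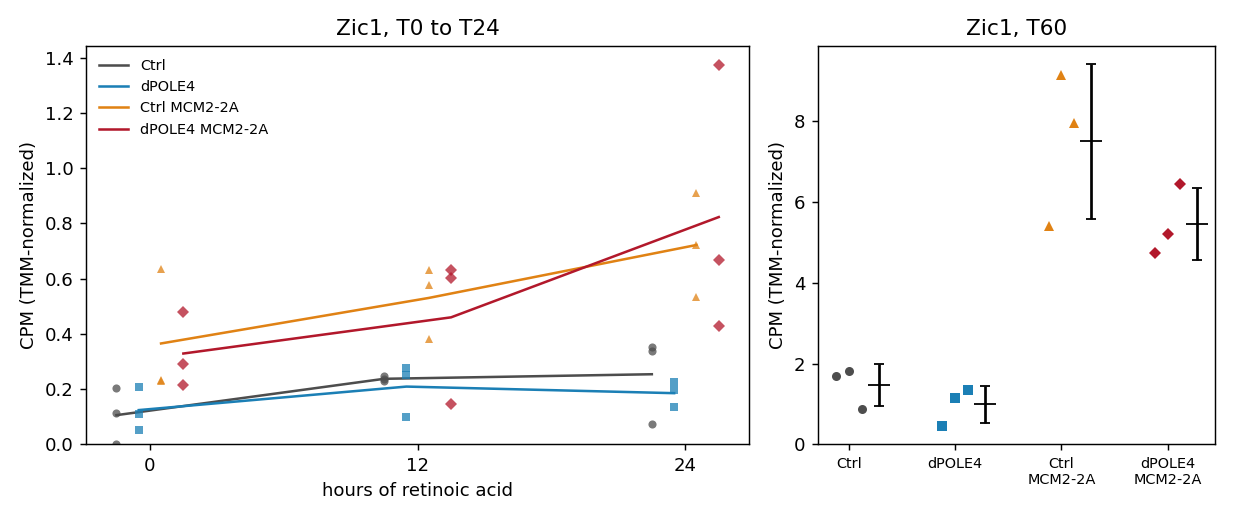
CPM of Zic1 in each library from T0 to T24 (left, lines through group means) and at T60 (right, with the mean and SD of each group), on separate scales from 0. No library is above 1.37 CPM until T24, and at T60 the MCM2-2A libraries stand at 4.74 to 9.15 CPM against at most 1.83 in the WT background.

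Marker genes of other cell types also differed between Ctrl MCM2-2A and Ctrl at T60, and their part in the Zic1 result was not tested. Of all features, 16.9% were called in this comparison. The summed CPM of 5 endoderm markers, all above 1 CPM, was 282 to 306 in Ctrl MCM2-2A and 137 to 192 in Ctrl (3 of 5 tested called higher). That of 3 trophectoderm markers, with Elf5 under 1 CPM, was 159 to 185 against 38.8 to 51.7 (2 of 2 tested called higher). Sums were lower in Ctrl MCM2-2A for the 6 neural markers, with Hes5 under 1 CPM (227 to 261 against 314 to 338; 2 of 5 tested called lower), and for 5 fibroblast markers (176 to 192 against 363 to 488; 2 called lower and 1 higher). The sum of 5 mesoderm markers, with Mesp1 under 1 CPM, was 14.4 to 15.9 against 24.9 to 31.1, but of the 4 tested 2 were called higher and 1 lower, and the lower sum rested on Meox1 (5.31 ± 1.23 against 22.7 ± 2.26 CPM), while Eomes stood at 7.83 ± 0.776 against 4.04 ± 1.53 CPM. For POLE4 depletion in MCM2-2A at T24, where Zic2 and Zic5 were called lower, the mESC sums overlapped (1273 to 1425 CPM with dTAG, 1250 to 1404 without), as did the neural sums (75.7 to 90.5 and 82.0 to 89.2). The trophectoderm sums did not overlap at T24 (51.9 to 64.8 with dTAG, 38.9 to 48.5 without) or at T12 (34.8 to 40.7 with dTAG, 25.4 to 31.2 without). The mesoderm sums did not overlap at T24 (14.9 to 16.2 with dTAG, 13.3 to 13.9 without). The part of either list in the Zic2 and Zic5 results was not tested.

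Ordered over the 16 groups of the RA course, Zic2 was highest in Ctrl T12 (77.3 ± 7.55 CPM) and lowest in dPOLE4 MCM2-2A T60 (8.68 ± 2.26). Zic5 was highest in Ctrl T12 (75.5 ± 7.63) and lowest in dPOLE4 T60 (5.31 ± 0.325). Of the 15 pairs of neighbours in that order, 9 overlapped in range for Zic2 and 9 for Zic5, among them the T60 groups of each gene. The dPOLE4 MCM2-2A groups of T0, T12 and T24 took places 10, 11 and 12 for Zic2, below all T0, T12 and T24 groups of the other lines. For Zic1, 14 of 15 neighbours overlapped, and the 1 gap lay between dPOLE4 MCM2-2A T60 (5.47 ± 0.891) and Ctrl T60 (1.46 ± 0.524).

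The genes with the course most like that of each member were found by the Pearson correlation of mean log2 CPM over these 16 groups, among 16255 features with a mean of at least 1 CPM. It is a description, since the groups share lines and time points. For Zic2 they were Eif4e, which encodes the cap-binding translation factor (r = 0.977), Tnfsf13, Nxf1, Morf4l1 and Insm1 (r = 0.967). For Zic5 they were Ttpa (r = 0.991), Kdm3a, which encodes an H3K9 demethylase (r = 0.988), Morc3, Ing3 and Kbtbd8 (r = 0.982). For Zic1 they included Tmbim6 (r = 0.972), 5031439G07Rik, Lgmn and Atp6ap2 (r = 0.966). Zic2 and Zic5 correlated with each other at 0.963, and Zic1 with them at -0.849 and -0.841.

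The other genes of the formative list were Lef1, Otx2, Pou3f1, Sox4, Krt18, Foxd2 and Fgf5. This list was taken over from an earlier analysis of these samples, so its direction is not independent evidence. On POLE4 depletion in MCM2-2A, 2 of the 6 tested were called lower at T12 (0.404% of all features called), Lef1, which encodes a partner of beta-catenin (-1.78 ± 0.141), and the homeobox gene Otx2 (-1.07 ± 0.115). At T24 (1.02% of all features called), 3 of 6 were called lower, Lef1 (-1.35 ± 0.221), Otx2 (-1.47 ± 0.228) and the POU factor gene Pou3f1 (-0.95 ± 0.122), and the keratin gene Krt18 was called higher (0.60 ± 0.0866). The median of the list was -0.55 at T12 and -0.94 at T24, against -0.0024 and 0.0030 over all features. At T60 (2.25%) Foxd2 was the 1 gene called, lower (-1.22 ± 0.24), and at 96 h (0.304%) Lef1 (-1.38 ± 0.146) and Pou3f1 (-0.75 ± 0.105) were called lower. The list was also lower in the WT background, with medians of -0.35 at T12, -0.29 at T24 and -0.53 at 96 h. Of the 6 tested there, 4, 3 and 4 had an unadjusted p under 0.05. DESeq2 called 0, 1 and 1, and edgeR none, with 0% of all features called. At 96 h the median in MCM2-2A was -0.66, and that of the differences between the backgrounds -0.03. Tested between the backgrounds, no gene of this list was called by edgeR at T12 or T24 (3 and 4 had an unadjusted p under 0.05, and DESeq2 called 1 and 0), with Lef1 at -1.27 ± 0.189 (adjusted p = 0.0121) at T12 and Otx2 at -1.12 ± 0.327 (adjusted p = 0.265) at T24.

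The GLI and hedgehog list holds the genes whose zinc fingers are closest to those of ZIC proteins and the signalling components upstream of them. Of its 17 genes, 15 and 17 were tested for POLE4 depletion in MCM2-2A at T12 and T24 and none was called by edgeR or DESeq2 (5 and 6 had an unadjusted p under 0.05 in edgeR), with medians of -0.15 and -0.16; as 0.404% and 1.02% of all features were called, this is near the background. Ptch1, the hedgehog receptor gene, was the 1 gene called at T60 (-0.60 ± 0.0838; 2.25% of all features called) and at 96 h (-0.61 ± 0.0865; 0.304%). In Ctrl under RA, 5 of 14 tested rose and 3 fell from T0 to T12 (11.3% of all features called), among them Gas1, which encodes a co-receptor (1.95 ± 0.258), and Gli2, which encodes an activator of the pathway (-0.70 ± 0.0613). From T24 to T60, 8 of 16 rose and 3 fell (35.7% of all features called).

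Of 22 genes of neural and dorsal fate, the setting in which the Zic genes act later, 11 of the 15 tested rose in Ctrl from T0 to T12 and 1 fell, with a median of 1.22 (11.3% of all features called). Sox3 rose at 2.52 ± 0.114 and the homeobox gene Meis2 at 2.32 ± 0.0912. On POLE4 depletion in MCM2-2A, 1 of 17 was called lower at T12 (0.404% of all features called), Meis2 (-0.68 ± 0.0962). At T24 (1.02%), 3 of 19 were called lower, Meis2 (-0.93 ± 0.075), Sox1 (-0.70 ± 0.131) and the dorsal progenitor gene Olig3 (-1.65 ± 0.339), and the Wnt ligand gene Wnt3a was called higher (1.06 ± 0.198). At T60 (2.25%), 3 of 19 were called lower in MCM2-2A, with a median of -0.30. In the WT background 3 of 12 were called lower at T60 (0.193% of all features called), with a median of -0.20. In Ctrl MCM2-2A against Ctrl at T60, where Zic1 was called higher and 16.9% of all features were called, 3 of 19 were called higher, the dorsal paired-box genes Pax3 (1.79 ± 0.373) and Pax7 (3.22 ± 0.494) and Wnt3a (1.65 ± 0.379). Called lower were Pax6 (-2.32 ± 0.109), Irx3 (-2.05 ± 0.138), Sox1 (-1.47 ± 0.253) and Meis2 (-1.18 ± 0.0649), and the median of the 19 was -0.06 against 0.01 over all features.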

How the data were processed

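Strand-specific, rRNA-depleted total RNA was sequenced from 3 libraries in each of 20 groups. The deposited values are raw counts per gene and repeat subfamily: the authors trimmed reads with cutadapt 4.2, aligned them to mm10 with STAR, keeping multiple alignments, and counted them with TEcount of TEtranscripts. The strand setting of the counting is not given in the sources used here. Of 56633 features, 1146 are repeat subfamilies, and columns not used numbered 0.

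The RA-course table (T0 to T60) and the 96 h table were normalised separately. Features passing filterByExpr of edgeR (at minimum counts of 10 and a total of 15) were scaled by TMM and tested with the quasi-likelihood test of edgeR 4.0.16 in R 4.3.3, with Benjamini-Hochberg adjustment over all tested features. Calls needed an adjusted p under 0.01 and a log2 fold change over 0.58, the study's thresholds. The standard error was taken as the size of the log2 fold change over the square root of F. Each 2-group comparison used its 6 libraries, and each difference between effects the 12 of its 4 groups. DESeq2 1.42.0 was an alternative. The procedure was tested on simulated counts. The study describes the 3 libraries as biological replicates, and pairs of them differed beyond sampling noise (chi-square over degrees of freedom 2.70 to 37.3 in 60 pairs). Total counts per library lay between 7126100 and 46609151, and limits from 3 counts lay between 0.0652 and 0.416 CPM and cover counting error only.

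Replicate numbers were taken to pair the samples where all same-numbered deviations correlated above 0.1, which held at 96 h for dPOLE4 against Ctrl (lowest r 0.167), dPOLE4 MCM2-2A against Ctrl MCM2-2A (0.122) and Ctrl MCM2-2A against Ctrl (0.108). Named genes were the 3 members, other genes of the family, the 5 genes most correlated with each member, and genes of 3 lists and 6 marker lists; some items that this rule names are not reported here. The members and lists were chosen with earlier results of these data known. Symbols, positions and exon lengths came from GENCODE M21 and promoters from RefSeq, both on GRCm38.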

Additional observations from a re-analysis of the deposited data

Results flagged for a closer look

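The effect of POLE4 depletion on Zic2 differed between the MCM2-2A and the WT background by a log2 difference of -0.8966 at T12 and -1.06 at T24, each called by a test of the difference itself. The step from T24 to T60 differed between dPOLE4 MCM2-2A and Ctrl by 1.072 for Zic2 and 1.43 for Zic5, again by a test of the difference. For both genes dPOLE4 MCM2-2A already stood lower than Ctrl at T24, as given above. The Zic2 calls depended on single libraries, as given above, and the Zic5 call did not in any of 12 fits. As the genes were chosen with results of these data known, the calls are not independent evidence. The cause of these differences was not tested.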

How the results depend on the processing

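Alternatives were DESeq2, edgeR with DESeq2 size factors, TMM factors from genes only, no filter on low counts, at least 10 counts in every library, a replicate block, all groups in 1 fit, no cutoff on fold change and leaving out each library. Changes were tallied only for tested comparisons of the members that met the criterion on size in the main edgeR fit. In these, 453 alternative values kept direction and side of the threshold, 13 passed it newly, 16 no longer did and 1 turned direction. Comparisons below that size, or not fitted by edgeR, did not enter this tally. Members called for Ctrl MCM2-2A against Ctrl numbered 3, and 5 without a filter, 9 without a cutoff on fold change and 2 to 6 with 1 library left out. For the RA steps they numbered 15, and 16 with DESeq2, which added Zic1 from T24 to T60 in dPOLE4, 23 without a cutoff on fold change and 15 to 17 with 1 library left out. For the difference of the POLE4 effect between backgrounds they numbered 2, and 4 with DESeq2, 4 without a filter and 0 to 2 with 1 library left out. For differences of RA steps from Ctrl they numbered 2, and 1 to 2 with 1 library left out. The 9 for Ctrl MCM2-2A against Ctrl include Zic2 and Zic5 at T0. The 23 for the RA steps include the T0 to T12 step of Zic5 in Ctrl MCM2-2A. Both use libraries on which the genes were selected, so these values are a description and are not counted as support. The 15 for the RA steps include Zic1 from T24 to T60 in Ctrl and in dPOLE4 MCM2-2A. There Zic1 passed the filter on low counts only through T60, where it is high, so these calls are not counted as support either. The same holds for the DESeq2 call of Zic1 in dPOLE4, where it was below the filter of edgeR. The calls for POLE4 depletion numbered 4 in MCM2-2A (6 with DESeq2 or without a filter) and 0 in the WT background under every alternative. With the replicate block, calls in MCM2-2A numbered 5: both 96 h calls were gained, and at T12, where numbers do not pair the samples, Zic5 had -0.73 with an adjusted p of 0.0108; between backgrounds at T24 it gave Zic5 -0.75 with an adjusted p of 0.00177. The Zic1 difference of the T0 to T12 step, Ctrl MCM2-2A minus Ctrl, was -0.70, ranged from -1.563 to 0.1649 with 1 library left out, and turned direction without Ctrl MCM2-2A T0 replicate 3, which held 26 counts. Of the 5 genes most like Zic2 and the 5 most like Zic5, 1 each was shared under Spearman correlation and 1 each over 48 libraries. Of the 5 most like Zic1, 0 were shared under Spearman correlation and 2 over 48 libraries. With a smaller prior count, the mean log2 CPM of Zic1 moved by its SD or more in 7 of 20 groups. The cause of the other changes was not tested. Depth limits Zic1 before T60, where libraries held few counts.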
